A study of Mus musculus with 12 samples.

Results

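Doxorubicin-treated mice with a cardiomyocyte deletion of Adam17 (A17α-MHCKO + DOX) were compared with saline-treated mice that carried the floxed gene intact (A17fl/fl + NS). The comparison takes the 3 left ventricles of each group, 6 of the 12 samples of the study, and all 16101 genes that passed the filter on low counts. A17α-MHCKO mice were made by crossing mice with loxP sites around exon 2 of Adam17 to a line in which the α-MHC promoter, active in heart muscle cells, drives Cre recombinase. Both groups therefore carried the floxed alleles, and the other cell types of the heart could still make the full transcript in the knockouts. The mice were male littermates on a C57BL/6J background, 8 weeks old at the first injection. DOX, an anthracycline given against cancer that is toxic to the heart, was injected into the peritoneum at 5 mg/kg on days 0, 7, 14 and 21, 20 mg/kg in all, and NS mice received normal saline in equal volume. Hearts were taken 4 weeks after the last dose, from 1 mouse for each library. Genotype, which includes the Cre transgene, and treatment both differ between the 2 groups, so their parts in any difference cannot be told apart within this comparison. The other 6 hearts, A17fl/fl + DOX and A17α-MHCKO + NS, are set beside it where they bear on a gene.

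ADAM17 is a membrane protease that releases the extracellular part of many surface proteins, among them tumor necrosis factor (TNF), the receptors of TNF and ligands of the epidermal growth factor receptor. Freed TNF signals through TRAF adaptors and the kinase TAK1 to MAP kinases and NF-kB, which turn on cytokine, chemokine and survival genes. Doxorubicin poisons topoisomerase II, cycles electrons in mitochondria and raises reactive oxygen species, and heart muscle answers such stress with antioxidant, p53 and chaperone programs and, over weeks, with loss of contractile protein and fibrosis.

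Adam17 was read first, as the targeted gene. It had 70.9, 48.7 and 43.6 normalised CPM, counts scaled to a common library size, in the 3 A17fl/fl + NS hearts and 27.9, 36.8 and 32.2 CPM in the 3 A17α-MHCKO + DOX hearts. Every treated knockout lay below every saline control. The difference was -0.75 on the log2 scale (standard error 0.18), with an unadjusted p of 0.00119 and an adjusted p of 0.230 from edgeR's quasi-likelihood test, and it was -0.52 without A17fl/fl + NS replicate 1. Reads from every exon and every cell type are pooled in these counts, so a transcript without exon 2 still adds to them.

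The 6 libraries held between 15950717 and 17488695 counts. The saline controls did not form a tight reference. As a measure of distance, the root mean square difference of log2 CPM over all tested genes was taken for each pair of libraries. Between A17α-MHCKO + DOX and A17fl/fl + NS hearts it had a median of 0.772 over 9 pairs, with a range of 0.658 to 1.12. Among the A17fl/fl + NS hearts themselves it was 0.867 to 1.24, whereas among the A17α-MHCKO + DOX hearts it was 0.521 to 0.598. The median distance of treated knockouts from the controls was thus smaller than any distance between 2 controls. A17fl/fl + NS replicate 1 was far from every other library. With it left out the median to the treated knockouts was 0.737, still below the 0.867 that separated the remaining 2 controls. For comparison, treated knockouts stood at a median of 0.520 from A17fl/fl + DOX hearts and 0.586 from A17α-MHCKO + NS hearts. Values without A17fl/fl + NS replicate 1 are given below where that heart decides a result.

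**Figure D1:**
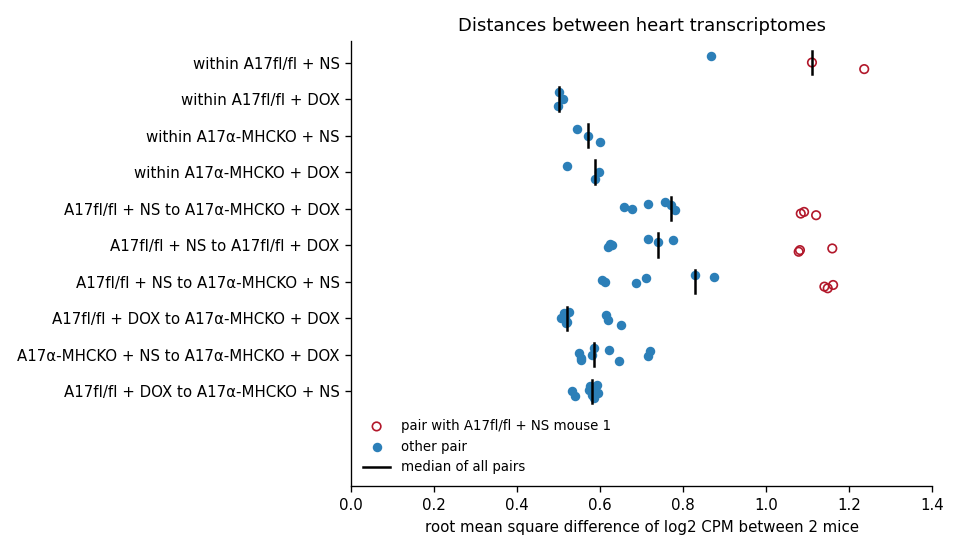
Root mean square difference of log2 CPM (x axis) for each pair of the 12 hearts, by pair of groups (y axis). Open red circles are pairs that include A17fl/fl + NS mouse 1 and black bars are medians. The A17fl/fl + NS hearts were 0.867 to 1.24 apart from each other, more than the median of 0.772 to A17α-MHCKO + DOX hearts.

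Genes were called by the limits of the study, which ask for a log2 fold change beyond 1 in either direction, p under 0.05 before adjustment, and FPKM averaging over 1 in at least 1 group. In A17α-MHCKO + DOX against A17fl/fl + NS hearts 473 genes were called (2.94% of those tested), 102 of them higher (0.634%) and 371 lower (2.3%). Of the lower genes, 323 (87.1%) had their highest value in A17fl/fl + NS replicate 1. Of the higher genes, 63 (61.8%) had their lowest value there. After adjustment of edgeR's quasi-likelihood p, a single gene stayed under 0.05 (0.00621%), Pold3, while 2336 genes (14.5%) had an unadjusted p under 0.05. Without A17fl/fl + NS replicate 1 the balance of the calls turned, with 136 genes higher (0.829%) and 112 lower (0.683%), and 6 genes passed the adjusted p. These were Pold3, P4ha3, C7, Igsf23, Scn4b and Scn4a. With all libraries kept but weighted by limma's voom, 77 genes were called higher and 73 lower. A17fl/fl + NS replicate 2 moved the counts the other way. Without it 982 of 16445 tested genes were called, 292 higher and 690 lower, and 383 passed the adjusted p. Leaving out replicate 3 gave 770 called genes of 16491, 113 higher and 657 lower. Leaving out a treated knockout gave 323 to 385 called genes. Counts in gene lists without one of these libraries, given below, are to be read beside these totals.

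The fits with all libraries and without A17fl/fl + NS replicate 1 called 115 genes in common with the same sign, 24.3% of the first set and 46.4% of the second. Of these, 57 were higher in treated knockouts (55.9% of the genes called higher with all libraries) and 58 were lower (15.6% of those called lower). For 82 of the 115 every treated knockout lay on one side of every control, a criterion that 13.5% of all tested genes met. The 115 were chosen by the difference between these same hearts, so a higher share was built into the choice. A further 5 genes were called in both fits with opposite signs, Ccr1, Ch25h, Sprr1a, Bcl2a1b and Bcl2a1d, named after their values were seen. Ccr1, a chemokine receptor of myeloid cells, had 113.1, 1.26 and 3.13 CPM in the controls and 5.41, 5.91 and 4.55 CPM in the treated knockouts. Its log2 fold change went from -2.89 with all libraries to 1.27 without the first control.

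**Figure D2:**
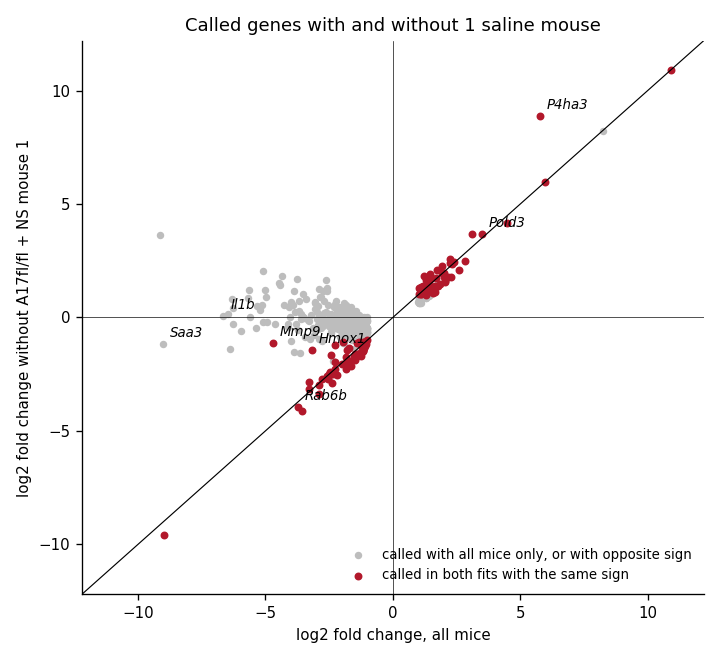
Log2 fold change of each gene called with all mice (x axis) against its value without A17fl/fl + NS mouse 1 (y axis), with the line of equality. Red points are the 115 genes called in both fits with the same sign. Grey points on the left, such as Il1b and Saa3, moved towards 0 or past it.

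The smallest p belonged to Pold3, which encodes an accessory subunit of DNA polymerase delta. It had 12.8, 8.26 and 10.02 CPM in A17fl/fl + NS and 137, 136 and 81.6 CPM in A17α-MHCKO + DOX hearts. This gave a log2 fold change of 3.51 with a standard error of 0.24, and edgeR's adjusted p was 0.000191. P4ha3 encodes a subunit of the prolyl hydroxylase that modifies collagen. P4ha3 had 5.25, 0.36 and 0.06 CPM in the controls and 79.1, 124 and 114 CPM in the treated knockouts. With all libraries its log2 fold change of 5.78 had a standard error of 0.88 and an adjusted p of 0.0661. Without A17fl/fl + NS replicate 1 the fitted log2 fold change was 8.90 and the adjusted p 3.62e-05, with only 6 and 1 counts in the 2 remaining controls. Both genes were as high in A17α-MHCKO + NS hearts, at 113 to 155 CPM for Pold3 and 90.1 to 170 CPM for P4ha3. In A17fl/fl + DOX hearts they stayed at 8.83 to 9.87 CPM and 0.44 to 0.80 CPM. They were the only genes of the 115 for which all 6 knockout hearts lay apart from all 6 A17fl/fl hearts, as they did for 54 (0.335%) of all tested genes. Both lie on chromosome 7, with 12 genes between them in the order of RefSeq (GRCm38.p6), 3 of which code for protein.

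Irx5, an Iroquois homeobox factor of the ventricle, had 5.71, 5.45 and 7.83 CPM in A17fl/fl + NS and 13.3, 13.6 and 15.7 CPM in A17α-MHCKO + DOX hearts (log2 fold change 1.16, standard error 0.17, adjusted p = 0.0610). Its neighbor on chromosome 8, the noncoding gene Crnde, with no gene between them in RefSeq, had 2.09 to 2.44 CPM in the controls and 3.83 to 6.11 CPM in the treated knockouts. Irx4, a related factor that marks ventricular muscle cells, had 20.3, 18.9 and 24.8 CPM against 44.5, 40.6 and 34.6 CPM. Its log2 fold change of 0.90 (adjusted p = 0.109) stayed under the limit of size. Fgf16, a fibroblast growth factor made by heart muscle, had 4.16, 10.1 and 5.01 CPM in the controls and 20.8, 17.9 and 21.2 CPM in the treated knockouts (log2 fold change 1.63, standard error 0.28, adjusted p = 0.109). None of the controls reached a treated knockout in Irx5, Irx4 or Fgf16. For Irx5 and Fgf16, A17fl/fl + DOX hearts were also above all 6 NS hearts, at 10.3 to 11.2 CPM and 15.9 to 18.2 CPM.

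Rragd, a GTPase that tells the kinase mTORC1 of amino acids, had 46.6, 38.5 and 23.1 CPM in A17fl/fl + NS hearts and 107, 100.4 and 102 CPM in A17α-MHCKO + DOX hearts (log2 fold change 1.51, adjusted p = 0.190). Mpc1, part of the carrier that brings pyruvate into mitochondria, had 33.9, 21.8 and 16.0 CPM against 109, 130 and 37.8 CPM (log2 fold change 1.95, adjusted p = 0.199). The treated knockouts differed widely for Mpc1, and the third was close to the highest control. Atpif1, the inhibitor that stops the mitochondrial ATP synthase from running backwards, had 96.7, 65.0 and 79.2 CPM against 225, 138 and 158 CPM (log2 fold change 1.11, adjusted p = 0.153). Alas1, the first enzyme of heme synthesis, had 111, 99.6 and 44.9 CPM in the controls and 174, 208 and 163 CPM in the treated knockouts, with a log2 fold change of 1.09 (adjusted p = 0.237) that was 0.79 without A17fl/fl + NS replicate 3. Nr0b2, a nuclear receptor that represses transcription, had 5.08 to 6.52 CPM in the controls and 8.90 to 14.1 CPM in the treated knockouts (adjusted p = 0.109). The remaining higher genes named by the rule were Polr1e, a subunit of RNA polymerase I, at 11.2 to 13.0 against 22.03 to 28.0 CPM (log2 fold change 1.01, adjusted p = 0.0566), Sp3os, Scgb1c1 and Smim5. Their log2 fold changes were 1.42, 2.82 and 1.13. Without 1 or another library the log2 fold changes of Polr1e, Atpif1, Smim5 and Nr0b2 fell just under the limit of 1, to between 0.885 and 0.991. Scgb1c1 was uneven among the treated knockouts, with 50.1, 18.5 and 16.2 CPM. 

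**Figure D3:**
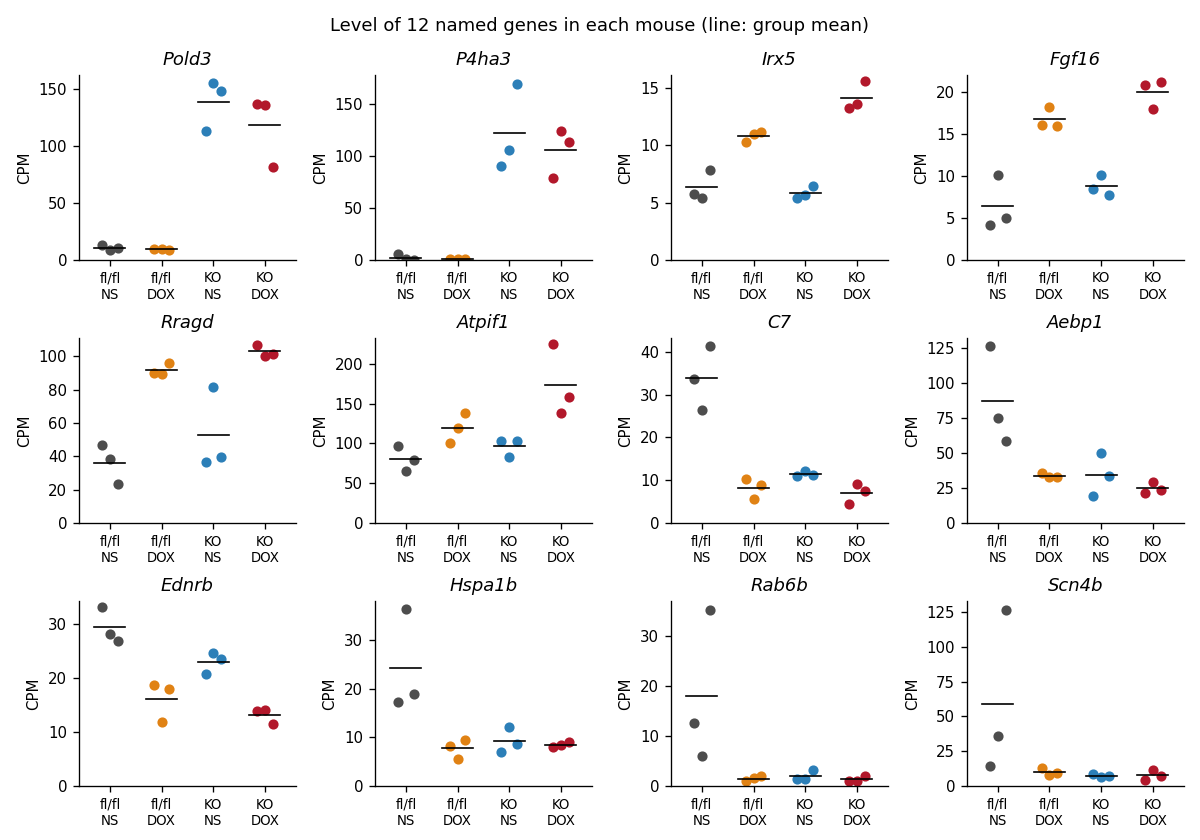
Normalised CPM (y axes, each from 0) of 12 named genes in each of the 12 hearts, by genotype (fl/fl, A17fl/fl, and KO, A17α-MHCKO) and treatment (x axes), with a line at each group mean. Pold3 and P4ha3 separated the genotypes, Irx5 and Fgf16 were higher after DOX in both genotypes, and C7, Aebp1, Hspa1b, Rab6b and Scn4b were highest in the A17fl/fl + NS hearts.

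Among the lower genes C7 had the smallest p. C7 is a component of the complement complex that pierces membranes and is made in the heart by fibroblasts. It had 33.6, 26.4 and 41.4 CPM in A17fl/fl + NS and 4.53, 9.16 and 7.47 CPM in A17α-MHCKO + DOX hearts (log2 fold change -2.26, standard error 0.29, adjusted p = 0.0515 and 0.0435 without A17fl/fl + NS replicate 1). Aebp1, a matrix protein that binds collagen, had 127, 75.0 and 58.8 CPM in the controls and 21.7, 29.2 and 23.9 CPM in the treated knockouts (log2 fold change -1.80, adjusted p = 0.136). Has1, a hyaluronan synthase, had 4.79, 3.17 and 1.38 CPM against 0.38, 0.39 and 0.18 CPM (log2 fold change -3.28, adjusted p = 0.136). In all 3 genes the groups did not overlap. Ednrb, the endothelin receptor found mainly on endothelium, had 33.1, 28.1 and 26.9 CPM against 14.0, 14.1 and 11.5 CPM (log2 fold change -1.15, standard error 0.18, adjusted p = 0.0758). Cldn15, a claudin of cell junctions, had 13.3, 13.0 and 13.0 CPM against 5.22, 6.82 and 5.95 CPM (log2 fold change -1.13, adjusted p = 0.226). For Ednrb and Cldn15 the 3 controls lay close together, and all of them were above the treated knockouts. In a bulk sample fewer cells of a type and less RNA per cell cannot be told apart.

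Scn4b, a sodium channel subunit of cardiac conduction, had 14.4, 36.3 and 127 CPM in the controls and 4.72, 11.6 and 7.41 CPM in the treated knockouts (log2 fold change -2.90, adjusted p = 0.230). It was -3.37 without A17fl/fl + NS replicate 1 (adjusted p = 0.0456) and -1.68 without replicate 3. Rab6b, a small GTPase of vesicle traffic best known from neurons, had 12.5, 5.98 and 35.2 CPM against 1.07, 0.97 and 2.004 CPM (log2 fold change -3.72, adjusted p = 0.109). Cdh4, the cadherin of retina and brain, had 4.67, 4.85 and 21.9 CPM against 2.14, 2.99 and 1.76 CPM (log2 fold change -2.19, adjusted p = 0.230). For these 3 genes the third control was the highest by far, and without it Rab6b was at -2.77 and Cdh4 at -1.05, where Cdh4 was no longer called. Igsf23, of the immunoglobulin superfamily, was more even, with 8.25, 10.7 and 11.5 CPM against 1.07, 1.75 and 2.31 CPM (log2 fold change -2.56, adjusted p = 0.0566).

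Hspa1a and Hspa1b, the stress-inducible HSP70 chaperones, were lower together, and their promoters are shown because the genes are near-identical neighbors on chromosome 17. The RefSeq sequences (GRCm38.p6) from 250 bases before to 50 bases after each start lie on the minus strand at chr17:34972107-34972406 and chr17:34959189-34959488. They are printed 5′ to 3′, with capitals on the only match to GAANNTTC, a pair of inverted units of the heat shock element.
Hspa1a: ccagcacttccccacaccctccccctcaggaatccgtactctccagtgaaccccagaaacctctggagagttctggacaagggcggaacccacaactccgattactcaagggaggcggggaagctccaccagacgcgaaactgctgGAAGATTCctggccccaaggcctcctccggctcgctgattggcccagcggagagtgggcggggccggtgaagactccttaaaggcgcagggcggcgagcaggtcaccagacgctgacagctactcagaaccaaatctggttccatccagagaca
Hspa1b: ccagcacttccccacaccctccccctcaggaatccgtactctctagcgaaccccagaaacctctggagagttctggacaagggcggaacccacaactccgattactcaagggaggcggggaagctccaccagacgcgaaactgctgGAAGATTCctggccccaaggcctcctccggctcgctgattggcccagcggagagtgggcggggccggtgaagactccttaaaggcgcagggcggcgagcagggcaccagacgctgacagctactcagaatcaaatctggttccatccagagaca
Of the 300 positions, 296 (98.7%) held the same base in both. The match stood 104 bases before the start in each, and 7.86% of 32851 promoters searched on both strands held one. Hspa1b had 17.4, 36.4 and 18.9 CPM in A17fl/fl + NS and 8.06, 8.38 and 9.11 CPM in A17α-MHCKO + DOX hearts. The difference was -1.51 on the log2 scale (standard error 0.31, adjusted p = 0.199). Hspa1a had 7.21, 19.7 and 15.9 CPM against 4.97, 5.00 and 5.83 CPM, or -1.44 on the log2 scale (standard error 0.35, adjusted p = 0.230). Groups did not overlap for either gene. As near-identical copies they can share reads, so the split between them is uncertain. Dnajb1, a co-chaperone of HSP70, had 35.4, 33.1 and 32.3 CPM in the controls and 28.3, 20.3 and 21.4 CPM in the treated knockouts, and its log2 fold change of -0.53 stayed under the limit of size. Of the 24 tested genes for heat shock proteins and chaperones of the endoplasmic reticulum, Hspa1a and Hspa1b were called lower in both fits. None was called higher. Over all tested genes 2.3% were called lower with all libraries and 0.683% without A17fl/fl + NS replicate 1. Since the 2 copies can share reads, the count was not read as a result about the list. The median of the list was -0.13 with all libraries and 0.08 without A17fl/fl + NS replicate 1. Of its 18 genes with a promoter in the table, 6 held the motif.

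Antioxidant genes under the factor NRF2 gave 7 called genes of 36, all lower, beside 2.3% of all tested genes called lower. Of the 7, 5 were also called without A17fl/fl + NS replicate 1. Leaving out A17fl/fl + NS replicate 2 gave 11 called genes, all lower, in a fit that called 690 of 16445 tested genes lower. The median log2 fold change was -0.34 with all libraries and 0.00 without the first control, against -0.04 and -0.01 over all tested genes. These 5 were Gclm, Gsta1, Gsta2, Gsta3 and Hmox1. Gclm, the regulatory subunit of the enzyme that limits glutathione synthesis, had 34.1, 35.7 and 45.9 CPM in A17fl/fl + NS hearts and 12.6, 24.2 and 12.9 CPM in A17α-MHCKO + DOX hearts (log2 fold change -1.22, standard error 0.38, adjusted p = 0.237). Gclc, its catalytic partner, had 21.2, 20.6 and 18.5 CPM against 13.0, 14.5 and 11.9 CPM (log2 fold change -0.62, adjusted p = 0.230). Neither gene had a treated knockout at the level of a control. The Gclm promoter (RefSeq, GRCm38.p6, plus strand, chr3:122245307-122245606) is shown because it held the letters of the antioxidant response element, TGACNNNGC, here read from the other strand and set in capitals, 134 bases before the start.
Gclm: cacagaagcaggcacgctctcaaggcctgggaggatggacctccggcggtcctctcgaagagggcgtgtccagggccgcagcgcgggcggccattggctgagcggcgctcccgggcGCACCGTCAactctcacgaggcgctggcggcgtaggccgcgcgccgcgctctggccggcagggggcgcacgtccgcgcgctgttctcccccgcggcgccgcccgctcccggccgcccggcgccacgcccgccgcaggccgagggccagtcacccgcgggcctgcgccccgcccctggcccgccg
Of the 30 listed genes with a promoter in the table, 9 held that motif on either strand, and 12.4% of all 32851 promoters did. Gsta1 and Gsta2, transferases that join glutathione to toxic compounds, had 4.50, 1.38 and 7.83 CPM and 1.90, 1.02 and 4.51 CPM in the controls. In the treated knockouts they had 0.49 to 1.13 CPM and 0.32 to 0.69 CPM. Each control exceeded each treated knockout, but as close paralogs the genes may share reads. Hmox1, which breaks down heme, had 370, 20.4 and 70.2 CPM against 15.2, 19.3 and 16.5 CPM, with a log2 fold change of -3.18 (adjusted p = 0.230) that became -1.42 without the first control. Prdx2, a peroxiredoxin, went the other way, from 221 to 225 CPM in the controls to 270 to 352 CPM in the treated knockouts (log2 fold change 0.43, adjusted p = 0.237).

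The position of the other 6 hearts was read for the 115 genes called in both fits. For 35 of them (17 higher, 18 lower) the 3 A17fl/fl + NS hearts lay outside all 9 other hearts, as they did for 2.77% of all tested genes. C7, Aebp1, Has1, Hspa1b, Scn4b, Rab6b, Igsf23, Gsta2 and Ednrb were in this set. C7, for example, had 5.601 to 10.2 CPM in A17fl/fl + DOX and 11.05 to 12.05 CPM in A17α-MHCKO + NS hearts, and Aebp1 had 32.7 to 35.8 CPM and 19.01 to 50.1 CPM. The A17α-MHCKO + DOX hearts were the ones outside for 14 genes (12 higher, 2 lower), against 1.35% of all tested genes. Among these were Irx5, Crnde, Rragd, Atpif1, Polr1e and Smim5. All 6 DOX hearts lay apart from all 6 NS hearts for 16 genes (12 higher, 4 lower), against 1.16%. They included Irx5, Fgf16, Rragd, Alas1 and Nr0b2 on the higher side and C7 and Ednrb on the lower side. The sets overlap, and since the genes were chosen on the A17fl/fl + NS and A17α-MHCKO + DOX hearts, the counts describe them only.

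The contrast of A17fl/fl + DOX against A17α-MHCKO + NS hearts uses none of the same mice. There, a gene that follows treatment keeps its sign and a gene that follows genotype turns it. Of the 473 called genes 240 (50.7%) had the same sign, 64 of the 102 higher (62.7%) and 176 of the 371 lower (47.4%), beside 54.6% of all tested genes. Among the 115 genes called in both fits the share was 60.9%. At an unadjusted p under 0.05 in the other mice, a level reached by 4.25% of tested genes, 15 of the 115 (13%) passed. Pold3, P4ha3 and Cpxm2 turned sign. Cpxm2 did not follow genotype alone, with a log2 fold change for genotype of -2.24 after NS and 0.32 after DOX. Its A17fl/fl + NS hearts, at 21.1 to 48.4 CPM, lay above all 9 other hearts. The other 12 genes kept their sign. The named ones among them were Irx5, Fgf16, Rragd, Alas1, Myh7 and Cideb on the higher side and Ednrb and Cldn15 on the lower side. Irx5 differed by 0.89 on the log2 scale (unadjusted p = 0.000305), Fgf16 by 0.93 (0.00587), Rragd by 0.80 (0.0219), Alas1 by 0.99 (0.00583), Ednrb by -0.50 (0.0174) and Cldn15 by -0.59 (0.0321). All these p are from edgeR's quasi-likelihood test, and 1 gene, Pold3, passed after adjustment. Myh7, the slow myosin heavy chain that mouse ventricles use before birth and under load, had 249, 506 and 896 CPM in A17fl/fl + NS hearts and 3173, 887 and 1814 CPM in A17α-MHCKO + DOX hearts (log2 fold change 1.83, standard error 0.55, adjusted p = 0.237). Its groups overlapped, as the third control exceeded the second treated knockout. The interaction of genotype and treatment was tested on all 12 hearts, and 0 genes passed an adjusted p under 0.05 by edgeR's quasi-likelihood test, with 965 at an unadjusted p under 0.05 and 0.524 as the smallest adjusted p.

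**Figure D4:**
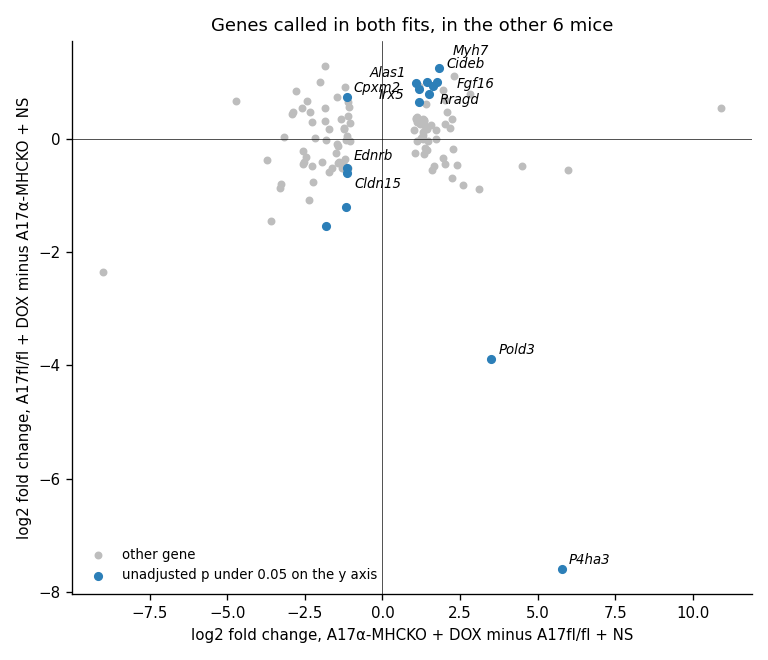
Log2 fold change of the 115 genes called in both fits, A17α-MHCKO + DOX minus A17fl/fl + NS (x axis), against A17fl/fl + DOX minus A17α-MHCKO + NS in the other 6 mice (y axis). Blue points have an unadjusted p under 0.05 on the y axis. Pold3 and P4ha3 lie far below 0, whereas Irx5, Fgf16, Rragd, Alas1 and Myh7 lie above it.

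For 4 of these genes the comparisons that share one of the 2 groups are given side by side. Irx5 had a log2 fold change of 0.78 for DOX in A17fl/fl mice, 1.28 for DOX in knockouts, -0.11 for genotype after NS and 0.39 for genotype after DOX. Rragd had 1.34, 0.97, 0.54 and 0.17 in the same order. C7 had -2.03, -0.70, -1.56 and -0.23. Aebp1 had -1.36, -0.47, -1.34 and -0.45. Irx5 and Rragd thus had their larger values for treatment in either genotype, while C7 and Aebp1 had theirs in the 2 comparisons that use the A17fl/fl + NS hearts.

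The nuclear-encoded subunits of the respiratory chain, which make ATP in mitochondria, had a positive log2 fold change in 33 of 33 tested genes, and 21 of them lay wholly above the controls. Over all tested genes 45.8% were positive and 7% lay wholly above the controls. The median of the list was 0.43 with all libraries and 0.35, with 30 positive, without A17fl/fl + NS replicate 1. None was called with all libraries, since no change exceeded the limit of size. Cox7b of complex IV had 409, 421 and 404 CPM in A17fl/fl + NS hearts and 823, 546 and 569 CPM in A17α-MHCKO + DOX hearts (log2 fold change 0.65, standard error 0.16, adjusted p = 0.235). Sdhd of complex II had 297, 366 and 324 CPM against 610, 456 and 429 CPM (0.60, adjusted p = 0.237). In both genes the first treated knockout was the highest. The 13 genes encoded by the mitochondrial genome did not share this, with 3 positive, no gene apart between groups and a median of -0.07, or -0.24 without the first control. That median was 0.13, with 11 positive, without A17fl/fl + NS replicate 3. Ribosomal protein genes were positive in 27 of 30, with a median of 0.23 and no gene apart between groups. The ribosomal median was 0.57 with 30 positive without A17fl/fl + NS replicate 1, and 0.02 with 16 positive without A17α-MHCKO + DOX replicate 1.

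Sarcomere and Z-disc genes were positive in 20 of 25, 8 of them without overlap and 0 called. Their median of 0.28 was 0.09 without A17fl/fl + NS replicate 1 and 0.54, with 4 called higher, without replicate 2. Tnnt2, cardiac troponin T, had 3687, 3924 and 3793 CPM against 6476, 4843 and 5020 CPM (log2 fold change 0.52, adjusted p = 0.237). Tnnc1, cardiac troponin C, had 1217, 1283 and 1355 CPM against 2153, 1776 and 1735 CPM (0.55, adjusted p = 0.237). The 10 markers of ventricular muscle cells were all positive, 6 of them wholly above the controls, with a median of 0.55, and 0.42 without the first control. Their sum was 24160, 46180 and 42350 CPM in the controls and 55980, 53130 and 48250 CPM in the treated knockouts, with the lowest sum in the first control. A17fl/fl + DOX hearts reached the level of the treated knockouts, at 49940, 51910 and 55260 CPM. In A17α-MHCKO + NS hearts the sum was 43910, 38840 and 35250 CPM. The part of this sum in the other muscle genes was not tested. Genes of calcium handling and ion channels were positive in 16 of 27 with a median of 0.11, and genes of fatty acid and ketone oxidation in 25 of 36 with a median of 0.22. Both medians turned negative without the first control, at -0.10 and -0.08, and without replicate 2 the calcium list had a median of 0.55 with 3 called higher. In the oxidation list 2 genes were called lower, beside 2.3% of all tested genes. Without the first control 2 were called lower, with Pdk4 in common. Pdk4, the kinase that shuts pyruvate out of the citric acid cycle, had 144, 712 and 2264 CPM in the controls and 176, 114 and 313 CPM in the treated knockouts (log2 fold change -2.37, adjusted p = 0.298), and without A17fl/fl + NS replicate 3 it was at -1.09 and not called. Glycolysis genes had a median of -0.10, with 1 of 24 called lower, and the cardiac stress list had 5 of 18 positive with a median of -0.30, 1 called higher, Myh7, and 2 lower. Without the first control that median was 0.03 with no gene called lower.

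The axis from TNF to the MAP kinases had 34 tested genes. Of these 4 (11.8%) were called, all lower, beside 2.3% of all tested genes called lower, and the median was -0.13. Without A17fl/fl + NS replicate 1, 0 were called. Tnf itself was not tested, because too few libraries reached the count that the filter asks for. Its counts were 1194, 8 and 6 in the controls and 1, 10 and 7 in the treated knockouts, so that only the first control held the transcript in number. Traf3, the adaptor the study followed, had 12.1, 10.6 and 9.65 CPM in A17fl/fl + NS and 13.2, 9.68 and 17.9 CPM in A17α-MHCKO + DOX hearts, which overlap (log2 fold change 0.33, standard error 0.29, unadjusted p = 0.272). Tab1, which activates TAK1, had 12.7, 17.4 and 16.7 CPM against 29.6, 22.9 and 26.4 CPM with no overlap (log2 fold change 0.75, standard error 0.18, adjusted p = 0.230). Cebpb, a transcription factor of inflammation, had 427, 189 and 132 CPM against 100.1, 73.5 and 71.9 CPM (log2 fold change -1.61, adjusted p = 0.230, and -0.97 without the first control). The 7 genes of ADAM17 and its iRhom partners all had negative log2 fold changes, with a median of -0.32. None was called with all libraries, and 2 lay wholly below the controls, as did 6.48% of all tested genes. Without A17fl/fl + NS replicate 2, 2 were called lower. Leaving out A17fl/fl + NS replicate 3 or A17α-MHCKO + DOX replicate 2 gave 1 called lower. Adam9, a related protease, had a log2 fold change of -0.92, which was -0.51 without the first control.

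Target genes of NF-kB and TNF gave the largest number of calls of any signaling list, 13 of 25, all lower, with a median of -1.50. Over all tested genes 2.3% were called lower. Without A17fl/fl + NS replicate 1 a single one, the matrix metalloprotease Mmp9, was called and the median was -0.11. Il1b, interleukin 1 beta, had 428, 0.90 and 1.82 CPM in the controls and 2.08, 1.36 and 0.85 CPM in the treated knockouts, and its log2 fold change went from -6.65 to 0.07. Socs3, the feedback inhibitor of cytokine receptors, had 233, 15.1 and 18.2 CPM against 12.4, 9.49 and 13.1 CPM, and went from -2.93 to -0.51. The values of the other 2 controls lay close to those of the treated knockouts. Saa3, Spp1, Cxcl5 and Chil3, the genes with Il1b whose change shrank most, had 917, 545, 230 and 478 CPM in the first control and at most 3.52 CPM in either the other 2 controls or the treated knockouts. Neutrophil markers moved with them. Their sum over 12 genes was 3111 CPM in A17fl/fl + NS replicate 1 and 16.7 to 89.9 CPM in the other 5 libraries. Of the 9 tested, 8 were called lower, and the median of -4.46 became 0.67 without that library. Macrophage markers summed to 1426 CPM there and to 609 to 741 CPM in the other 5. Their part in the inflammatory calls was not tested.

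The same control also carried most of the calls in the matrix. Among matrix, crosslinking and activated fibroblast genes 11 of 38 were called, all lower, and among collagens 5 of 21, all lower, with medians of -0.45 and -0.48. Over all tested genes 2.3% were called lower. Without A17fl/fl + NS replicate 1 no gene of either list was called, and the medians were -0.16 and -0.02. Without A17α-MHCKO + DOX replicate 1, 7 matrix genes and 0 collagens were called. Fibroblast markers summed to 9604, 4995 and 3676 CPM in the controls and to 3633 to 4068 CPM in the treated knockouts. Cell cycle genes, with a median of -0.67 and 0 of 37 called, had a median of 0.21 without the first control, and without replicate 3 it was -1 with 4 called lower. The p53 targets had 4 of 30 called lower with all libraries and 0 without the first control, and their medians were -0.17 and -0.11. Without A17α-MHCKO + DOX replicate 1, 1 was called, whereas 6 were called lower without A17fl/fl + NS replicate 2 and 6 without replicate 3. Perp, a p53 target that encodes a membrane protein of cell junctions, had 183 to 247 CPM in treated knockouts against 129 to 162 CPM in controls (log2 fold change 0.55, adjusted p = 0.237). The 22 genes of cell death had 0 called in either fit, but 1 higher and 3 lower without A17fl/fl + NS replicate 2. Of 18 genes for anthracycline targets and transport 1 was called lower, and 0 without the first control.

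Immediate-early genes gave 7 calls of 23, all lower, beside 2.3% of all tested genes called lower. Of the 7, Atf3 and Nr4a3 were also called without A17fl/fl + NS replicate 1. Atf3 was not called without replicate 2. Nr4a3 had 9.23, 22.7 and 3.51 CPM in the controls and 5.04, 4.29 and 3.46 CPM in the treated knockouts. The groups overlapped for both genes, and replicate 2 held the highest value of each. The median of the list was -0.74 with all libraries and -0.16 without A17fl/fl + NS replicate 1. Arc, an activity-regulated gene, had 10.7, 4.13 and 5.83 CPM in A17fl/fl + NS and 1.57, 1.69 and 0.73 CPM in A17α-MHCKO + DOX hearts (log2 fold change -2.37, standard error 0.44, adjusted p = 0.127). Fosl2, a partner of JUN in AP-1, had 197, 60.0 and 57.7 CPM against 36.6, 27.5 and 30.6 CPM (log2 fold change -1.73, adjusted p = 0.230, and -0.90 without A17fl/fl + NS replicate 1, under the limit of size). Both kept their groups apart, and both were as low in the other 6 hearts, at 0.93 to 2.83 CPM for Arc and 29.9 to 41.4 CPM for Fosl2. The integrated stress list had 5 of 28 called lower, 2 of them also without the first control, Atf3 and Chac1. Chac1, which degrades glutathione, had 6.06, 8.86 and 11.5 CPM against 2.33, 5.33 and 2.37 CPM.

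Genes of antigen presentation had a positive log2 fold change in 20 of 21 cases. Of the 21, 6 were called, all higher, beside 0.634% of all tested genes called higher. The median of 0.84 was 0.85 without A17fl/fl + NS replicate 1, again with 6 called higher. Only Tap1 was among the 6 of both fits. The other 5 with all libraries were the class II genes H2-Aa, H2-Ab1, H2-Eb1, Cd74 and Ciita, and without that control they were H2-K1, H2-Q7, Psmb8, Psmb9 and Nlrc5, which serve class I. H2-Ab1, a chain of the class II complex, had 31.3, 91.8 and 66.8 CPM in the controls and 110, 119 and 232 CPM in the treated knockouts (log2 fold change 1.28, standard error 0.43, adjusted p = 0.254). H2-K1, the class I heavy chain, had 393, 197 and 234 CPM against 352, 403 and 717 CPM (log2 fold change 0.84, adjusted p = 0.284). The third treated knockout was the highest in both. Without A17α-MHCKO + DOX replicate 3 no gene of the list was called and the median was 0.37. Tap1, which carries peptides to class I, had 25.4, 7.30 and 13.1 CPM against 15.5, 25.8 and 65.9 CPM, again led by that heart. Tap1 was not particular to treated knockouts, at 27.8 to 45.5 CPM in A17fl/fl + DOX and 24.3 to 51.4 CPM in A17α-MHCKO + NS hearts. Its log2 fold changes from A17fl/fl + NS were 1.21 and 1.19 in these groups. Interferon-stimulated genes had 36 of 47 positive, 3 called higher and a median of 0.50, and without the first control 8 were called and the median was 0.68. Without A17α-MHCKO + DOX replicate 3, 0 were called, 27 were positive and the median was 0.06, so neither list kept a call without that heart. The interferon list also depended on a control. Without A17fl/fl + NS replicate 2 it had 0 called higher, 2 called lower and a median of 0.27. In A17fl/fl + DOX minus A17α-MHCKO + NS hearts the medians of the 2 lists were -0.04 and -0.34. A change from the controls that those groups share cancels in this contrast. Markers of T and NK cells summed to 2.60, 5.98 and 8.02 CPM in the controls and 6.74, 7.67 and 18.3 CPM in the treated knockouts, and their part in these lists was not tested. Gzma, a protease of cytotoxic lymphocytes, had 0.00, 0.12 and 0.19 CPM against 1.01, 0.97 and 2.004 CPM (unadjusted p = 0.000132, adjusted p = 0.109), and with so few counts in the controls no fold is given.

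**Figure D5:**
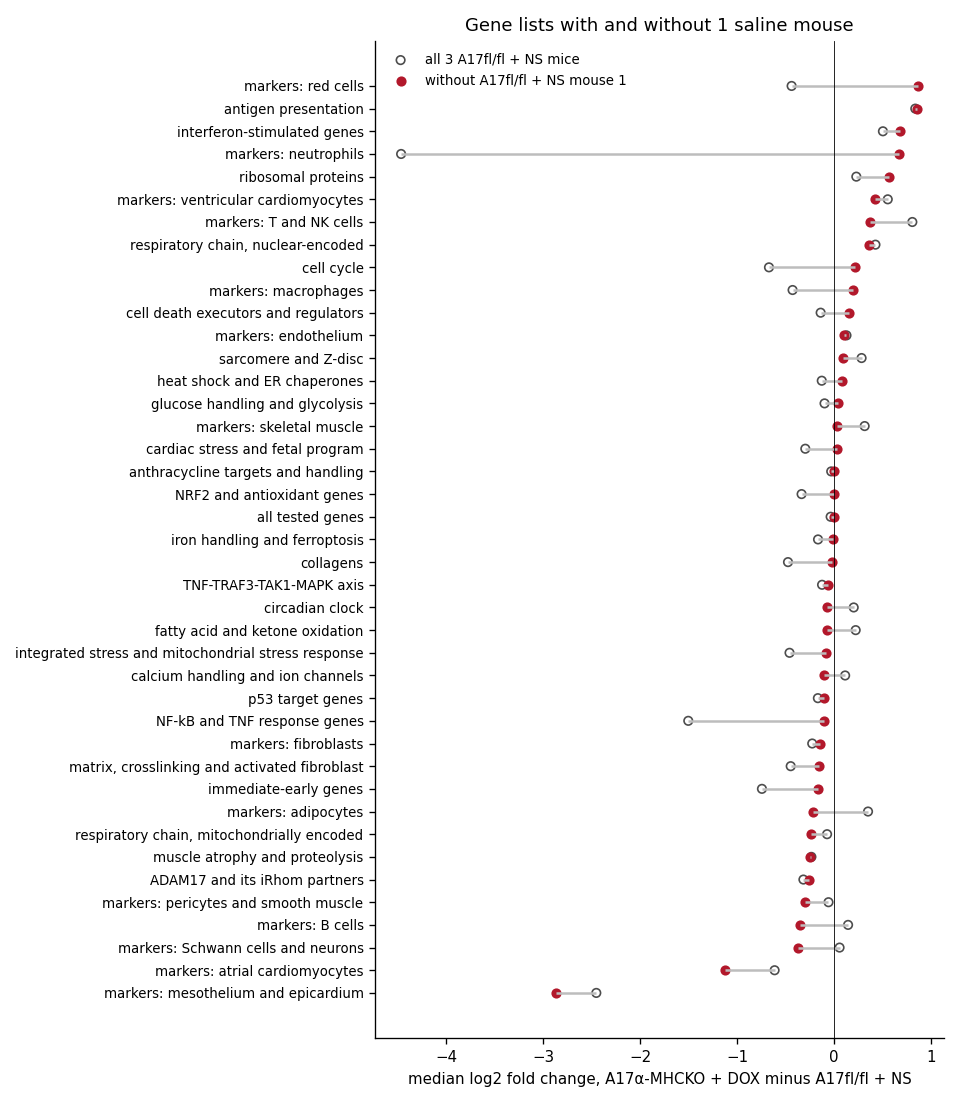
Median log2 fold change (x axis) of the tested genes of each list and of all tested genes (y axis), A17α-MHCKO + DOX minus A17fl/fl + NS. Open circles use all 3 controls and red points leave out A17fl/fl + NS mouse 1. The inflammatory and neutrophil lists moved most, and the lists of antigen presentation and the nuclear-encoded respiratory chain moved little.

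The remaining cell types were uneven in the controls. Atrial markers summed to 1094, 7915 and 432 CPM in A17fl/fl + NS hearts and to 1970 to 4236 CPM in A17α-MHCKO + DOX hearts. The atrial list had a median of -0.61 with 1 gene called lower, and without A17fl/fl + NS replicate 2 a median of 2.18 with 7 of 10 called higher. Bmp10, an atrial growth factor, had 298 CPM in A17fl/fl + NS replicate 2, at most 0.31 CPM in the other 2 controls and at most 0.49 CPM in the treated knockouts. It was called lower, and its log2 fold change turned from -8.99 to 0.30 without replicate 2. Mesothelium and epicardium markers summed to 127, 170 and 12.53 CPM in the controls and to 11.01 to 34.9 CPM in the treated knockouts, and 2 of 10 were called lower. Their median of -2.45 was 2.41 without replicate 2. Red cell markers summed to 3623, 518 and 821 CPM in the controls and to 1133 to 1267 CPM in the treated knockouts. Endothelial markers, at 1555 to 1909 and 1686 to 2003 CPM, and pericyte and smooth muscle markers, at 1138 to 2105 and 1307 to 1774 CPM, overlapped between the groups. Adipocyte, skeletal muscle, Schwann cell and B cell lists had 0 called genes with all libraries. Leaving out A17fl/fl + NS replicate 2 moved the median of the adipocyte markers from 0.35 to 4.13, with 4 of 9 called higher, and 1 Schwann cell marker was then called. Circadian clock genes had 2 of 18 called lower, iron handling 1 higher and 1 lower of 18, and muscle atrophy genes 2 of 26 lower. Without the first control these were 0, 1 higher and 1 lower in the same order. With all libraries, 0.634% of all tested genes were called higher and 2.3% lower. Counts this small were not read as results about the lists.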

How the data were processed

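mRNA of left ventricles was sequenced by the authors as stranded paired-end libraries, and per the labels reads were processed with CASAVA 1.8, HISAT2, SAMtools 1.3.1 and edgeR on the GRCm39 build. According to the methods StringTie counted fragments. The authors deposited 1 table of 53465 genes with raw fragment counts and FPKM for each of the 12 mice, with 0 columns of values left unused. The deposited FPKM served only for the limit of mean FPKM over 1. Gene coordinates are not given, because the reference used here is of another build. Promoters and gene order come from RefSeq on GRCm38.p6.

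Counts were fitted in R 4.3.3 with edgeR 4.0.16. Genes were kept by filterByExpr, scaled by TMM and tested by glmQLFit and glmQLFTest in 1 model of 4 group means, with Benjamini-Hochberg adjustment over 16101 genes (16406 without A17fl/fl + NS replicate 1). All p are two-sided. Standard errors were derived from the size of each log2 fold change and its F statistic. CPM are TMM-normalised, and log2 CPM used a prior count of 2. TMM factors of the 6 libraries were 0.914 to 1.06, and the 12 libraries held 15950717 to 21725076 counts. The common dispersion was 0.0842, and 0.0446 without A17fl/fl + NS replicate 1. The script was tested on simulated data.

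The groups, the 40 gene lists and the rules were chosen with earlier results of these data known. Named genes are Adam17, Tnf, Traf3, Cebpb and Pold3; genes called in both fits without overlap of the groups, the 12 higher and 12 lower with the smallest larger p, without Gm and Rik genes; up to 3 per list with the smallest p; the 5 whose change drops most without A17fl/fl + NS replicate 1; and genes at an adjusted p under 0.05 in both fits. Others, such as Crnde, Gclm, Nr4a3, Ccr1, H2-K1, Tap1, Prdx2, Scn4a, Cideb and Cpxm2, were named after their values were seen. Lists are described by counts and medians with no test. The share of all tested genes called was 0.634% higher and 2.3% lower with all libraries. Without A17fl/fl + NS replicate 1 it was 0.829% and 0.683%. Alternatives were RLE and upper-quartile scaling, 10 counts in every library, no filter, DESeq2 1.42.0, the likelihood ratio test, limma 3.58.1 voom with library weights, robust fitting, the 2 groups alone, a replicate block, mean CPM in place of FPKM, and each library left out.

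Deviations of same-numbered libraries correlated at 0.0316, 0.00473 and -0.104, and those of differently numbered libraries at -0.104 to 0.111. Mice were therefore not treated as pairs, though so few values cannot exclude a pairing. Replicates were distinct, with chi-square values per degree of freedom of 13.2 to 170 within groups.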

Additional observations from a re-analysis of the deposited data

How the results depend on the processing

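The count of called genes stayed within 1.5 times of 473 under 8 of 11 settings of scaling, filter, test and design, from 386 to 658. It was 150 with voom and library weights, 259 with the 2 groups alone and 282 with the replicate block, and the share of higher genes among the calls went from 21.6% to 51.3% under voom weights and 37.9% under the block. The count at an adjusted p under 0.05, 1 gene, was 2 under RLE scaling, without a filter, in the robust fit and with the 2 groups alone, 5 with 10 counts in every library, 135 by the likelihood ratio test and 325 by DESeq2, and the cause was not tested. Replicate numbers were not used as pairs in the main fit, and the replicate block left 1 gene at an adjusted p under 0.05. Leaving out 1 library gave 248 (A17fl/fl + NS replicate 1) to 982 (A17fl/fl + NS replicate 2) called genes and 1 to 383 genes at an adjusted p under 0.05.

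Among the named genes 2013 recomputed values kept direction and call, 100 lost the call and 27 gained it. Sign turned in another 16 values of genes that were not called and in 9 values of called genes. With voom weights Col3a1 was 0.0969 and Chil3 0.137. Leaving out 1 library moved the log2 fold change of Il1b between -7.23 and 0.0742, of Spp1 between -7.04 and 0.137, of Lox between -4.61 and 0.031, of Cxcr2 between -5.79 and 0.336, of Mmp8 between -6.95 and 1.19 and of Chil3 between -6.88 and 0.412, each positive without A17fl/fl + NS replicate 1, and of Bmp10 between -11.3 and 0.305, positive without A17fl/fl + NS replicate 2.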
